A study of Mus musculus with 55 samples.

Results

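Trilinolenin, the triglyceride of linolenic acid, was given by gavage to wild-type mice, and mRNA of their whole hearts was set against that of hearts from control mice. The 7 arrays compared were those titled as wild-type trilinolenin replicates 1 to 4 and wild-type control replicates 1 to 3, out of 55 arrays in the series. The arrays name 18193 genes, and the 8237 of them with a linear signal above 20 on 3 or more arrays were tested, each by its probe set of highest mean. The study gave wild-type mice and mice without the nuclear receptor PPARα a single dose of 1 of 4 pure triglycerides, of the PPARα agonist Wy14643 or of vehicle, to find what each does to gene expression in the intact heart. Affymetrix mouse arrays were used, 1 for each heart, and all values below are log2 signals.

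All mice were male Sv129. The wild-type (WT) mice were 129S1/SvImJ and the PPARα-/- (KO) mice 129S4/SvJae, so genotype and substrain cannot be told apart when they are compared. The labels give their age as 9 to 12 weeks in one field and 2 to 6 months in another. They ate a modified AIN76A diet, with olive oil in place of its corn oil, for 2 weeks, and were fasted for 4 h. They then received 400 µL of pure oil, or, per the treatment protocol, of carboxymethyl cellulose alone as the control, for which another field reads none. Hearts were taken 6 h later. Besides the 4 trilinolenin and 3 control hearts, the WT groups used below held 4 hearts after triolein, 5 after trilinolein and 5 after tridocosahexaenoin, the triglycerides of oleic, linoleic and docosahexaenoic acid. The KO groups used held 5 control and 5 trilinolenin hearts. The control received no fat, so the comparison with it is one of an oil against a vehicle without energy, and only the contrasts between oils hold the fat load constant.

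The heart takes most of its energy from fatty acids, and a fat meal reaches it as fatty acids freed from triglyceride-rich particles at the vessel wall. Inside the cell they are oxidised, stored in lipid droplets or bound by PPARα, which switches on genes of their uptake, storage and oxidation. Polyunsaturated fatty acids are also prone to peroxidation, whose products free the factor NRF2 to induce genes of glutathione and heme metabolism, while fasting, insulin and glucocorticoids act on heart muscle through the FoxO factors and the glucocorticoid receptor.

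Array medians lay between 2.55 and 2.61, pairs of arrays correlated at 0.988 to 0.996, and no pair held more than 0.208% identical values. The number of hearts, above all the 3 controls, limits the precision. The labels number the arrays of a group and do not say more about how mice were assigned, so the p-values measure only the spread between these hearts. They come from limma, with Benjamini-Hochberg adjustment across every tested gene, and a gene is said to have risen or fallen, or to be called, at an adjusted p under 0.05. Errors of log2 differences are standard errors (SE). The gene lists were chosen with earlier results of these data known, so their shares and medians below are descriptions and not tests.

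Trilinolenin changed 281 genes, 3.41% of those tested, with 118 rising (1.43%) and 163 falling (1.98%). Of these, 66 rises and 55 falls passed 1.5-fold. Most changes were modest: the median size among called genes was 0.53 on the log2 scale, and the median difference over all tested genes was -0.03. For 270 of the called genes the 4 trilinolenin hearts did not overlap the 3 controls, against 1368 of all genes (16.6%). The split between rises and falls depends on the scaling, with 163 rises and 113 falls when each array is centred on the median of its bright genes and 137 and 135 after another quantile normalization. The count fell to 46 without control replicate 2 and lay between 126 and 205 without any other single array. A call remained without each of the 7 arrays in turn for 31 genes, 15 higher and 16 lower, and many of them are described below. Because whole tissue was measured, fewer cells of a type and less RNA in each cell cannot be told apart.

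The change of lowest p was in Etfbkmt, which encodes a methyltransferase acting on the electron transfer flavoprotein, the carrier that takes electrons from mitochondrial fatty acid oxidation to the respiratory chain. Its signal was 8.35, 8.29 and 8.38 in the control hearts and 9.30, 9.41, 9.37 and 9.27 after trilinolenin. The groups lay far apart and each was tight. The difference was 1.00 ± 0.13 (n = 4 against 3, adjusted p = 3.3e-06), a 2.00-fold rise that was called without each array. In KO hearts it rose by 0.89 ± 0.10 (adjusted p = 3.63e-07). Next to it stood a fall, that of Perm1, a muscle gene whose product supports mitochondrial gene expression downstream of the PGC-1 coactivators. Perm1 read 9.42, 9.54 and 9.30 in controls against 8.74, 8.64, 8.65 and 8.58, a difference of -0.77 ± 0.10 (adjusted p = 7.61e-06), again with no overlap and called without each array.

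The largest rise was that of Hmox1, the inducible heme oxygenase, which breaks heme down to biliverdin, iron and carbon monoxide. The 3 controls read 5.66, 6.29 and 4.39 and the 4 trilinolenin hearts 8.39, 9.18, 7.31 and 8.27. Every treated heart exceeded every control by more than 1 log2 unit, but both groups were wide. The rise of 2.84 ± 0.68, or 7.17-fold, had an adjusted p of 0.0133 and was not called without control replicate 3 or trilinolenin replicate 2 (highest adjusted p 0.107). Where 1.43% of all genes rose, 4 of 31 NRF2 target genes rose and none fell, with a median difference of 0.113. Besides Hmox1 these were Gsta3 and Mgst1, both glutathione transferases, and Osgin1, an oxidative stress response gene. Gsta3 read 4.55, 4.39 and 4.74 in controls and 5.77, 6.34, 5.74 and 5.31 after trilinolenin (1.22 ± 0.33, adjusted p = 0.025). Mgst1 moved less but more evenly, from 9.75, 9.59 and 9.31 to 10.15, 10.28, 10.17 and 10.10 (0.62 ± 0.12, adjusted p = 0.00292), and was called without each array. Osgin1 rose by 0.54 ± 0.13 from a control mean under the brightness minimum, so its size is not exact. Osgin1 was not called without control replicate 1, nor Gsta3 without any 1 control or trilinolenin replicate 2. Without single arrays the list's rises numbered 2 to 5. Of 27 genes of heme and iron handling Hmox1 alone was called, 5 having an unadjusted p under 0.05.

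Aldh1a1, a retinaldehyde dehydrogenase that also oxidises aldehydes of lipid peroxidation, rose with them. Controls gave 7.24, 7.04 and 7.27 and trilinolenin hearts 7.88, 8.13, 7.95 and 8.16. The difference of 0.85 ± 0.17 (adjusted p = 0.00302) was called without each array. Chac1, whose product degrades glutathione, and Herpud1, a gene of endoplasmic reticulum protein disposal, were the only 2 of 33 genes of the unfolded protein and integrated stress responses to pass the test. Chac1 went from 4.61, 4.76 and 4.65 to 5.20, 6.26, 6.09 and 5.71 (1.14 ± 0.28, adjusted p = 0.0164) and Herpud1 from 10.59, 10.89 and 11.02 to 11.69, 11.79, 11.50 and 11.67 (0.83 ± 0.20, adjusted p = 0.0162). Without control replicate 1 or 2 neither was called, nor was Chac1 without control replicate 3 or trilinolenin replicate 2 or 3. The median of that list was -0.01.

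A second group of large rises holds genes known to respond to glucocorticoids. Fkbp5, a co-chaperone that lowers the receptor's affinity for its hormone, read 6.10, 6.74 and 8.12 in controls and 9.10, 8.55, 8.37 and 9.15 after trilinolenin. Zbtb16, a zinc finger transcription factor, read 7.63, 8.34 and 9.34 against 9.84, 10.07, 9.98 and 9.87. In both, control replicate 3 was far above the other controls and close to the treated hearts, although the groups did not overlap. Fkbp5 rose by 1.81 ± 0.43 (adjusted p = 0.0126) and Zbtb16 by 1.50 ± 0.39 (adjusted p = 0.0206). Neither was called without control replicate 1 or 2, nor was Zbtb16 without trilinolenin replicate 2, the highest adjusted p being 0.121 and 0.169. Of 35 glucocorticoid responsive genes 6 rose and none fell, with a median of 0.338, where 1.43% of all genes rose. A higher mean at an unadjusted p under 0.05 was found for 16 of the 35 and for 512 of all 8237 tested genes. The other called genes of the list were Angptl4, the sulfotransferase gene Sult1a1 (0.78 ± 0.22) and both metallothionein genes. This list lost all its rises without control replicate 2 and kept up to 5 of them without another array.

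Metallothioneins are small cysteine-rich proteins that bind zinc and copper and respond to metals, oxidants and glucocorticoids. Mt2 went from 8.52, 8.71 and 9.55 to 10.50, 10.74, 10.29 and 10.45, a rise of 1.56 ± 0.36 (adjusted p = 0.0117). Mt1 went from 11.30, 11.41 and 11.87 to 12.35, 12.37, 12.11 and 12.21, a rise of 0.73 ± 0.19 (adjusted p = 0.0223). The other bright probe set of Mt1 gave 0.14 ± 0.34 and was not called, so the rise rests on 1 probe set. Control replicate 3 was again the highest control for both. Neither was called without control replicate 1 or 2, nor Mt1 without trilinolenin replicate 1 or 2. Among the 14 genes of metallothioneins and zinc transport, 2 zinc transporters fell, namely the importer gene Slc39a10 (-0.69 ± 0.19, adjusted p = 0.0278) and the exporter gene Slc30a5 (-0.24 ± 0.07, adjusted p = 0.0381). Slc30a5 lost its call without any 1 of the 7 arrays, and Slc39a10 without control replicate 2 or 3 or trilinolenin replicate 1 or 4. The promoters of the 2 metallothionein genes are neighbours on chromosome 8 and are shown here because both genes were called higher. They are RefSeq windows of GRCm38.p6, from 250 bases before the start site to 50 bases after it, read 5′ to 3′ on the plus strand. In Mt2 (chr8:94172368-94172667) capitals mark matches on both strands to TGCNCNC, a loose form of the metal response core with any base at N. In Mt1 (chr8:94178839-94179138) they mark the receptor palindrome, GNACA and TGTNC 3 bases apart.
Mt2: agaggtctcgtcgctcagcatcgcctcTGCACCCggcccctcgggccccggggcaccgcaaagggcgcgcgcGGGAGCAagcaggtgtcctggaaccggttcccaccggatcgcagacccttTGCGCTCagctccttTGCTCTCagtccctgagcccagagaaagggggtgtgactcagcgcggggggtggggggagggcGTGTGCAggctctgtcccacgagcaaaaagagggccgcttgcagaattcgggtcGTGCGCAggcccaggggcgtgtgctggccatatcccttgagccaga
Mt1: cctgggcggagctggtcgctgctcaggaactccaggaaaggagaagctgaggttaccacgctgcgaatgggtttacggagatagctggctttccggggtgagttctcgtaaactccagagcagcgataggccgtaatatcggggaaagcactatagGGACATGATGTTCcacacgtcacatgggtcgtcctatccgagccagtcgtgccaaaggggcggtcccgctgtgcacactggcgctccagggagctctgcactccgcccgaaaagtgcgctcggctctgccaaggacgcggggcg
The Mt2 window held 6 matches to this loose core, a number reached or passed in 31 of 6757 tested genes with an entry (0.459%). A window of Vegfa, which fell, and a window of Fam214a, which rose, each held as many. At least 1 match stood in 64.9% of all genes, 65.3% of the risen and 70.2% of the fallen ones. Matches to the loose core also stood in the Mt1 window, beginning at positions -23, 2 and 20 from the start, and are not marked there. The palindrome of Mt1 lay 94 to 82 bases before the start and was found in 31 genes (0.459%). Mt1 was the only one of 98 risen genes with an entry to hold it (1.02%). A match of letters is not a bound site.

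FoxO targets and genes of muscle atrophy had the highest share of rises among the lists, 8 of 32 (25%, against 1.43% of all genes), with none falling and a median of 0.244. This rank depends on lists chosen with earlier results known, and it was not tested. FoxO factors are held out of the nucleus by insulin signalling and drive genes of protein breakdown, autophagy and cell cycle arrest. Fbxo32, the muscle ubiquitin ligase also called atrogin-1, read 9.37, 9.30 and 9.23 in controls and 9.71, 9.76, 9.77 and 9.72 after trilinolenin. Cdkn1b, the cell cycle inhibitor p27, read 8.09, 8.31 and 8.17 against 8.90, 9.03, 8.83 and 8.85. In both genes the groups were narrow and well apart, and both were called without each array (0.44 ± 0.09, adjusted p = 0.00413, and 0.71 ± 0.14, adjusted p = 0.00302). Gabarapl1, an autophagosome protein, rose by 0.77 ± 0.19, the mitophagy receptor gene Bnip3 by 0.66 ± 0.16, and Sesn1, a leucine-sensing brake on mTORC1, by 0.56 ± 0.13. Pik3ip1, an inhibitor of PI3-kinase, rose by 0.72 ± 0.17, the transcriptional regulator Cited2 by 0.62 ± 0.17 and the cyclin gene Ccng2 by 0.52 ± 0.15. Ccng2 lost its call without any 1 of the 7 arrays (highest adjusted p 0.16), and the list's rises numbered 2 without control replicate 2 and up to 7 without another array. Of 35 autophagy and lysosome genes Gabarapl1 was the only one called, and Wdr45, an autophagy gene outside that list, rose from 7.28, 7.11 and 7.23 to 7.63, 7.77, 7.99 and 7.93 (0.62 ± 0.12, adjusted p = 0.00314). Mxi1, which opposes Myc, rose by 0.42 ± 0.08 (adjusted p = 0.00215). Wdr45 and Mxi1 were called without each array.

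The FoxO core TGTTTAC, searched on both strands of the same windows, was found in 3.18% of all tested genes with an entry, in 8 of 98 risen genes (8.16%) and in 1 of 131 fallen genes (0.763%). The 8 risen genes were Abhd4, Eola1, Fmo2, Lipe, Mxi1, Pnpla7, Sesn1 and Ypel3, of which Abhd4, Eola1, Fmo2 and Ypel3 are named for the match and not for their change. No test was made of these shares. Pnpla7, a lysophospholipase gene, and Sesn1 are given as sequences because both rose and hold the core, which is in capitals. In Pnpla7 (chr2:24975783-24976082, plus strand) it lies 35 to 41 bases after the start, and in Sesn1 (chr10:41810324-41810623, plus strand, the start site that holds the core out of 2) 22 to 28 bases after it.
Pnpla7: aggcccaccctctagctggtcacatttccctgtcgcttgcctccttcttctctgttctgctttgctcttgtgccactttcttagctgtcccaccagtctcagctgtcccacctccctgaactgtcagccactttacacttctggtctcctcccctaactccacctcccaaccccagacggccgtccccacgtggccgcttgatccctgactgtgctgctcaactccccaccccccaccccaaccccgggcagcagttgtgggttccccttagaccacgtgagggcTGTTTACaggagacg
Sesn1: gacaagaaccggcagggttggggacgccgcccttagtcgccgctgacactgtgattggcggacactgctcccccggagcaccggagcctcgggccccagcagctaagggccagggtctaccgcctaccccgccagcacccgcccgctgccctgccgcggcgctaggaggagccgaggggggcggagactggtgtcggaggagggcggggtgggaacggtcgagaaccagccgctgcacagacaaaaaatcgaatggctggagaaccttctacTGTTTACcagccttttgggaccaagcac
Pnpla7 went from 6.11, 6.02 and 6.23 to 7.10, 7.42, 7.78 and 7.27, a rise of 1.27 ± 0.29 (adjusted p = 0.0117), and Sesn1 from 10.64, 10.66 and 11.08 to 11.47, 11.40, 11.25 and 11.30. The groups did not overlap for either gene. Pnpla7 was not called without control replicate 2 (adjusted p = 0.0705), nor Sesn1 without control replicate 1 or 2.

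Genes of lipid handling were called mostly in storage and uptake. Of 32 genes of lipid droplets, lipolysis and fatty acid uptake 7 rose and none fell (median 0.126). Of 35 PPAR target genes 6 rose and none fell (median 0.146), where 1.43% of all genes rose and 1.98% fell. The lists share Angptl4, Plin2 and Slc27a1. Angptl4, a secreted inhibitor of lipoprotein lipase, read 6.25, 6.46 and 5.30 in controls and 7.03, 7.41, 9.05 and 7.57 after trilinolenin (1.76 ± 0.46, adjusted p = 0.0239). Ucp3, an uncoupling protein of muscle mitochondria, read 6.38, 6.30 and 5.09 against 6.93, 7.26, 7.61 and 7.14 (1.31 ± 0.32, adjusted p = 0.0162). In both, control replicate 3 was the lowest heart and trilinolenin replicate 3 the highest. Without either array the call of each gene was lost, and without control replicate 3 Ucp3 differed by 0.89 (adjusted p = 0.188). Angptl4 was also not called without control replicate 2, its highest adjusted p over the arrays left out being 0.162. Hsd17b11, whose product sits on lipid droplets, was the only gene of the droplet list called without each array, at 8.90, 8.98 and 8.68 in controls and 9.37, 9.34, 9.60 and 9.57 after trilinolenin (0.62 ± 0.12, adjusted p = 0.00292). Lipe, the hormone-sensitive lipase, went from 6.85, 7.16 and 6.39 to 7.52, 7.60, 7.56 and 7.44 (0.73 ± 0.17, adjusted p = 0.0126), a call lost without control replicate 3 (adjusted p = 0.139). The droplet coat genes Plin2 (0.55 ± 0.14) and Plin4 (0.60 ± 0.16), the transporter gene Slc27a1 (0.53 ± 0.14) and Gpam, the first enzyme of glycerolipid synthesis (0.29 ± 0.09), made up the rest of the droplet list. Gpam lost its call without any 1 of the 7 arrays, and the rises of the list numbered 2 without control replicate 2. Those of the PPAR list numbered 1 without control replicate 3. The summed signal of white adipocyte markers was also higher in every treated heart than in the controls, with the defining markers of that cell type under the minimum.

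Of 24 genes of mitochondrial fatty acid oxidation Eci2 alone was called, an isomerase needed for unsaturated chains. Its change was small and very even, from 10.23, 10.26 and 10.23 to 10.49, 10.51, 10.51 and 10.53 (0.27 ± 0.06, adjusted p = 0.00553), and was called without each array. The median of that list was 0.02. Of the other PPAR index genes, Pdk4, which restrains glucose oxidation by inhibiting pyruvate dehydrogenase, differed by 0.79 ± 0.25 (adjusted p = 0.0652) with no overlap, from 12.44, 12.53 and 12.36 to 13.13, 13.15, 13.45 and 13.20. The thioesterase gene Acot1 differed by 0.90 ± 0.36 (adjusted p = 0.177), the fatty acid transporter gene Cd36 by 0.02 ± 0.06 and the droplet gene Plin5 by 0.13 ± 0.22. Ppara itself differed by -0.44 ± 0.14 (adjusted p = 0.0588), from 8.00, 8.07 and 8.46 to 7.96, 7.93, 7.38 and 7.68, with no overlap. The peroxisomal list had no call among 18 genes (2 at an unadjusted p under 0.05) and the cholesterol list none among 13 (3 at that p), where 16.7% of all genes reached it. In fatty acid synthesis the desaturase gene Scd2 fell, from 8.28, 8.04 and 8.12 to 7.38, 7.42, 7.13 and 7.13 (-0.88 ± 0.21, adjusted p = 0.0147), as the only call among 16, lost without control replicate 1 or 2.

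**Figure D1:**
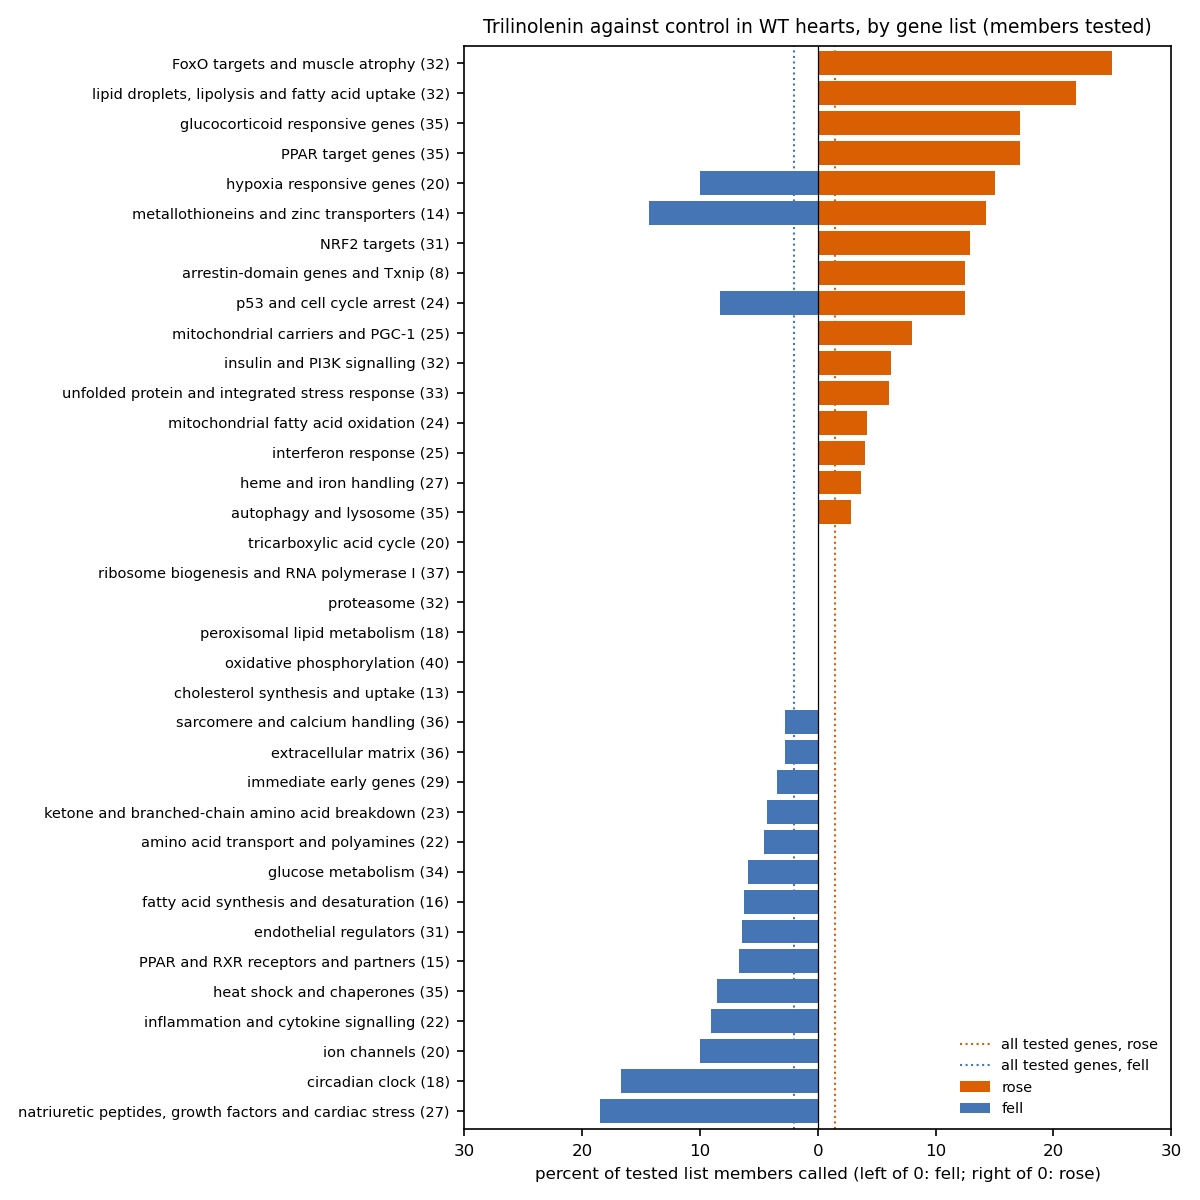
Bars give the percent of tested members of each gene list that rose (right of 0) or fell (left of 0) in WT hearts after trilinolenin, with the number of tested members in brackets and dotted lines at the shares over all tested genes (1.43% and 1.98%). FoxO targets (8 of 32) and lipid droplet genes (7 of 32) have the longest bars to the right, and cardiac stress genes (5 of 27) the longest to the left.

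Other rises that were called without each array lie outside these lists or in small ones. Tmtc1, a membrane protein of the endoplasmic reticulum, read 9.04, 9.10 and 9.12 in controls and 9.93, 9.84, 9.89 and 9.62 after trilinolenin (0.73 ± 0.12, adjusted p = 0.000519). Limd1, a LIM domain adaptor, went from 5.58, 5.82 and 5.74 to 6.43, 6.98, 6.79 and 6.83 (1.04 ± 0.22, adjusted p = 0.00591). Tmem41a, of the endoplasmic reticulum scramblase family, rose by 0.84 ± 0.15 (adjusted p = 0.00123), Abhd1 by 0.93 ± 0.19 (adjusted p = 0.00437) and the mitochondrial carrier gene Slc25a27 by 0.85 ± 0.17 (adjusted p = 0.00292), the last from a control mean under the brightness minimum. All of these had groups that did not overlap. Further large rises with no overlap were Fam214a, from 8.29, 8.25 and 8.44 to 9.58, 9.78, 9.73 and 9.78 (1.39 ± 0.30, adjusted p = 0.00743), the lysosomal transporter gene Slc46a3 (1.08 ± 0.24) and Arrdc3, an alpha-arrestin that restrains insulin and adrenergic receptors (0.87 ± 0.20, adjusted p = 0.0117). Fam214a, Slc46a3 and Arrdc3 were not called without control replicate 2, at an adjusted p of 0.0517, 0.0509 and 0.0765. Dixdc1, a Wnt pathway gene, rose by 1.28 ± 0.30, from 3.91, 3.52 and 3.49, under the minimum, to 4.69, 5.04, 4.90 and 5.03. Other large or low-p rises were the chemokine-binding receptor gene Ccrl2 (1.11 ± 0.31), Art5 (0.94 ± 0.20), Trmt5, a tRNA methyltransferase gene (0.87 ± 0.20), Tspyl4 (0.82 ± 0.17) and Car4, a carbonic anhydrase of the cell surface (0.69 ± 0.15). Spock2 (0.98 ± 0.29), N4bp2l1 (0.93 ± 0.23) and Khnyn (0.90 ± 0.23) rose from means under the minimum. None of these was called without each array. Single calls came from Iigp1 among 25 interferon genes (0.81 ± 0.17), and Tsc1, a brake on mTORC1, joined Pik3ip1 among 32 insulin signalling genes (0.42 ± 0.12, groups overlapping). Rasd1, a small G protein named for its induction by dexamethasone, rose by 1.09 ± 0.27 from a mean under the minimum.

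The falls were led by signalling genes of the stressed heart. Nr4a1, an orphan nuclear receptor of the immediate early class, read 8.23, 8.63 and 8.68 in controls and 6.36, 6.80, 7.06 and 5.30 after trilinolenin. The groups lay over 1 log2 unit apart, and the fall of 2.13 ± 0.48 on the log2 scale (adjusted p = 0.00997) was lost only without control replicate 2 (adjusted p = 0.0642). It was the only call among 29 immediate early genes. Fgf16, a growth factor of heart muscle, went from 6.15, 6.14 and 5.72 to 4.74, 4.37, 4.47 and 4.47 (-1.49 ± 0.35, adjusted p = 0.0126). Tnfrsf12a, the receptor of the cytokine TWEAK, went from 7.26, 7.49 and 7.42 to 6.01, 5.52, 6.50 and 6.25 (-1.32 ± 0.34, adjusted p = 0.0223). Nppb, the gene of B-type natriuretic peptide, went from 10.39, 10.20 and 10.82 to 8.60, 9.36, 9.24 and 9.51 (-1.29 ± 0.38, adjusted p = 0.0422). Fgf16 was not called without control replicate 2, nor Tnfrsf12a without any 1 control or trilinolenin replicate 2. The groups of Nppb did not overlap, yet it lost the call without any 1 of the 7 arrays (highest adjusted p 0.181). With Vegfa, the endothelial growth factor (-0.61 ± 0.14, adjusted p = 0.00911), and Myocd these made 5 falls and no rise among 27 genes of natriuretic peptides, growth factors and cardiac stress, whose median was 0.003. Of all genes 1.98% fell. Between 2 and 4 of the 5 falls in the list remained without single arrays, Vegfa and Myocd being called each time.

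Among the falls called without each array were Myocd and 3 genes of actin regulation. Myocd encodes myocardin, the muscle coactivator of serum response factor, which switches on cytoskeletal and contractile genes. It read 9.58, 9.89 and 9.94 in controls and 9.36, 9.01, 9.11 and 9.12 after trilinolenin (-0.66 ± 0.14, adjusted p = 0.00438). Srf itself went from 6.30, 6.74 and 6.78 to 5.80, 5.72, 6.21 and 5.76 (-0.73 ± 0.16, adjusted p = 0.00743), a call lost without control replicate 2 or 3. Wdr1, a cofactor of actin disassembly, fell by 0.41 ± 0.08 (adjusted p = 0.00292), Fblim1, a partner of filamin at cell contacts, by 0.49 ± 0.09 (adjusted p = 0.00221) and Mtss1, an actin-binding membrane protein, by 0.65 ± 0.13 (adjusted p = 0.00302). Those 3 were called without each array. Every bright probe set of each had a negative difference, although the smallest of Mtss1 was -0.006 ± 0.235, which shows no change. These genes are set side by side here for their known roles, after their values were seen, and no list of SRF targets was counted. The actin genes Actb and Actg1, also named after their values were seen, fell too but kept the call without only 1 and 3 of the 7 arrays. The other bright probe set of Actb gave -0.055 ± 0.128 and was not called, so the fall of Actb rests on 1 probe set. Sarcomere and calcium handling genes gave 1 fall among 36, the junctional gene Jph2 (-0.49 ± 0.14), and extracellular matrix genes 1 among 36, Loxl1 (-0.63 ± 0.18), each of which kept its call without 1 of the 7 arrays.

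**Figure D2:**
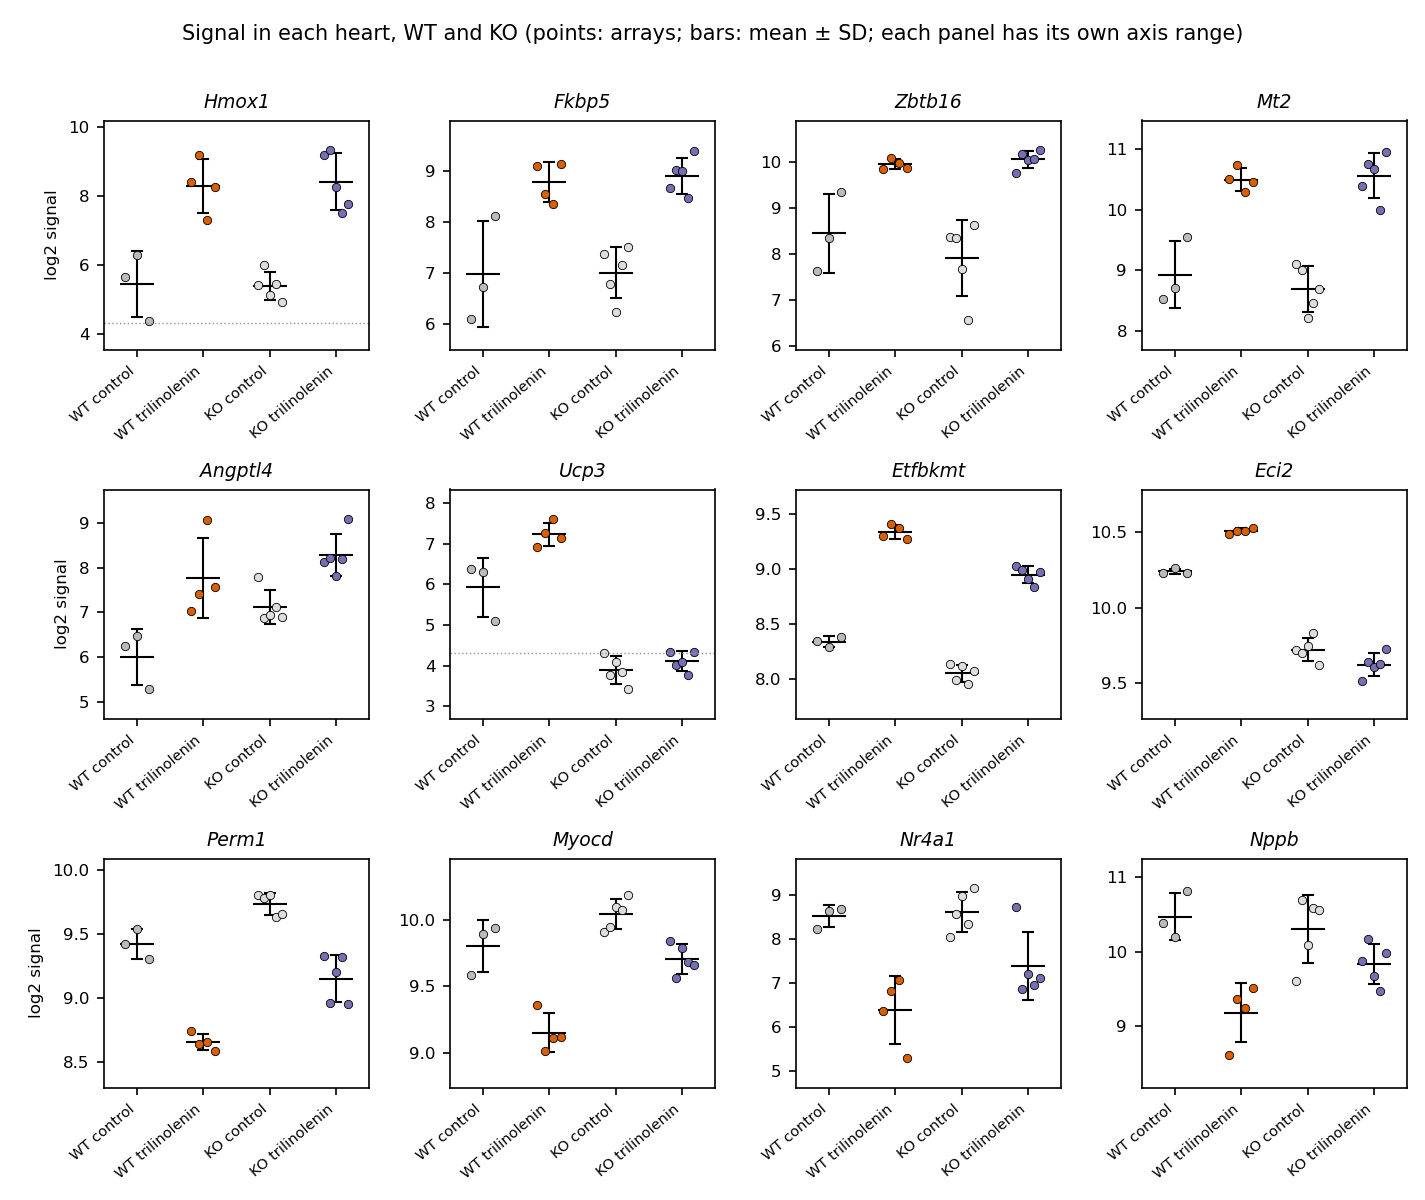
Each point is the log2 signal of 1 heart, with the mean and SD of its group, for 12 genes in WT and KO hearts after the control gavage or trilinolenin; a dotted line marks the brightness minimum of 4.322 where it falls in the panel, and axis ranges differ. The WT groups do not overlap in any panel, Hmox1, Fkbp5, Zbtb16 and Mt2 rose in KO hearts too, and Ucp3, Eci2 and Nppb were not called there.

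Several falls called without each array touch the nucleus, metabolism and transport. Nabp1, a single-stranded DNA binding protein, read 9.05, 8.86 and 8.91 in controls and 7.76, 8.02, 7.95 and 8.17 after trilinolenin, and all 6 of its bright probe sets were lower (-0.97 ± 0.16, adjusted p = 0.000519). The base excision repair gene Ung fell by 0.90 ± 0.17 and Kpna2, an importin that carries proteins into the nucleus, by 0.84 ± 0.16, both at an adjusted p of 0.00292. Slc7a1, the transporter of arginine and lysine, went from 7.71, 7.29 and 7.71 to 6.74, 6.66, 7.04 and 6.66 (-0.79 ± 0.15, adjusted p = 0.00292). Pptc7, a mitochondrial phosphatase, fell by 0.42 ± 0.07 (adjusted p = 0.00183). Ppp1r3c, which ties protein phosphatase 1 to glycogen and favours its synthesis, went from 9.90, 9.90 and 9.96 to 9.44, 9.21, 8.88 and 9.45 (-0.68 ± 0.15, adjusted p = 0.00772). It and the lactate transporter gene Slc16a1 (-0.35 ± 0.08) were the only 2 calls among 34 genes of glucose metabolism. Slc16a1 was not called without control replicate 3 (adjusted p = 0.073). Large falls that were lost without 1 or more arrays were Tnfaip2, from 7.64, 7.61 and 7.32 to 6.22, 6.76, 6.41 and 6.76 (-0.99 ± 0.23, with Tnfrsf12a the calls among 22 inflammation genes), Lrrc3b (-0.96 ± 0.23), the semaphorin and VEGF co-receptor gene Nrp2 (-0.88 ± 0.25), Phldb2 (-0.86 ± 0.21), Magi3 (-0.85 ± 0.21), the laminin receptor gene Itga6 (-0.81 ± 0.18) and Lrrc4b (-0.80 ± 0.22). So were Ccnyl1 (-0.51 ± 0.11) and the nuclear receptor coactivator gene Ncoa1 (-0.33 ± 0.10), the only call among 15 PPAR partners. Dapp1, Slc35e2, Tmtc2 and Ttc39b were called lower with means under the minimum after trilinolenin, and the groups of Dapp1 and Slc35e2 overlapped. Prrx1, a mesenchymal homeobox gene, which was called without each array, fell by 0.62 ± 0.12, Ralgapa2, which inactivates Ral proteins, by 0.77 ± 0.15 and Cltc, the clathrin heavy chain, by 0.28 ± 0.06, although of the 2 bright probe sets of Cltc only 1 was lower.

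Of 18 clock genes 3 fell, where 1.98% of all genes fell. Bhlhe40, a repressor of the clock, read 8.06, 8.22 and 7.93 in controls and 7.14, 7.30, 7.46 and 7.34 after trilinolenin (-0.76 ± 0.20, adjusted p = 0.0203). Clock went from 6.85, 6.97 and 6.90 to 6.22, 6.41, 6.44 and 6.45 (-0.53 ± 0.12, adjusted p = 0.0126). Ciart, a circadian repressor, went from 4.84, 5.61 and 5.50 to 3.96, 3.94, 4.04 and 4.78 (-1.14 ± 0.32, adjusted p = 0.0334), with its treated mean under the brightness minimum. The groups did not overlap for any of them, and the list had no call without control replicate 2. The whole list had a median of 0.135, above that of all genes, so its calls and its median differ in sign, but the median was -0.05 without control replicate 1. Clock proteins bind the E-box CACGTG, and the Ciart window (chr3:95882179-95882478, GRCm38.p6, minus strand, read 5′ to 3′ along the gene) is shown because it holds 3 of them, in capitals, beginning 116, 58 and 44 bases before the start.
Ciart: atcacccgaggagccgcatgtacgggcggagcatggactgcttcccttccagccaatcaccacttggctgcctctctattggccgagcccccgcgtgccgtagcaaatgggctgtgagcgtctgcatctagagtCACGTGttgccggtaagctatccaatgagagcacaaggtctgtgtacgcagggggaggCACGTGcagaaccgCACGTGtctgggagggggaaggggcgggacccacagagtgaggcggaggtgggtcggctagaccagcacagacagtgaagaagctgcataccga
At least 3 E-boxes stood in 12 of 6757 genes (0.178%), and at least 1 in 12.4% of all genes, 15.3% of the risen and 12.2% of the fallen. Other motifs were sought in the same windows on both strands. The antioxidant response core TGACNNNGC was present in 17.5% of all genes, 23.5% of the risen and 17.6% of the fallen. The PPAR element, a pair of AGGNCA repeats 1 base apart, stood in 0.207% of all genes, in none of the risen and in 0.763% of the fallen.

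Heat shock genes gave 3 falls among 35, where 1.98% of all genes fell. Dnajb1, a partner of HSP70, read 7.54, 8.18 and 7.06 in controls and 6.26, 6.57, 6.69 and 6.16 after trilinolenin (-1.17 ± 0.27, adjusted p = 0.0123), its controls being the more spread. Dnajb5 fell by 0.64 ± 0.15 and the small heat shock gene Hspb8 by 0.36 ± 0.10, and none of the 3 was called without control replicate 2. Of 20 ion channel genes 2 fell: Gja1, the gap junction protein connexin 43, from 12.34, 12.25 and 12.22 to 11.75, 11.66, 11.60 and 11.59 (-0.62 ± 0.15, adjusted p = 0.0174, all 5 bright probe sets lower), and the potassium channel gene Kcnq1 (-0.49 ± 0.13). The VEGF receptor gene Kdr fell by 0.85 ± 0.24 (adjusted p = 0.0376), and with Vegfa it made 2 of 31 endothelial regulators. Gja1, Kcnq1 and Kdr lost their calls without control replicate 1 or 2, Kcnq1 also without trilinolenin replicate 3 and Kdr without trilinolenin replicate 1, 2 or 4. Cell cycle genes went both ways among 24 of that list, Cdkn1b, Ccng2 and Sesn1 rising while Ccnd1, cyclin D1 (-0.56 ± 0.17), and Ung fell. Ccnd1 was called only without trilinolenin replicate 4 among the 7 arrays left out in turn. Hypoxia responsive genes did so too, with Bnip3, Mxi1 and Ndrg1 rising and Vegfa and Bhlhe40 falling among 20. Lists of housekeeping machinery had no call: oxidative phosphorylation among 40 genes (1 at an unadjusted p under 0.05), the proteasome among 32 (0 at that p), ribosome biogenesis among 37 (3) and the tricarboxylic acid cycle among 20 (4).

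Markers of other cell types were examined beside these changes. All 12 ventricular muscle markers were bright, and their summed linear signal was 145000 to 149700 in controls and 143300 to 151200 after trilinolenin. Among them only Irx4, a ventricular transcription factor, was called (-0.82 ± 0.19, adjusted p = 0.0103), a call lost without control replicate 2. Of the 8 bright atrial markers only Tbx5, a cardiac transcription factor, rose (0.88 ± 0.24, adjusted p = 0.0305), called without 1 of the 7 arrays alone, trilinolenin replicate 4. Their median difference was 0.635 (0.346 to 0.97 without single arrays), and their summed signal spanned 6901 to 9818 in controls and 6484 to 15620 after trilinolenin. The atrial gene Sln, a regulator of the calcium pump, read 9.41, 8.48 and 9.12 in controls and 8.23, 10.83, 10.53 and 10.49 after trilinolenin, so trilinolenin replicate 1 was below the controls and the other 3 treated hearts were above them. Dkk3, Myl4 and Myl7 were arranged alike. The part of atrial tissue in the results was not tested. Sums for endothelium (3214 to 3265 against 3175 to 3516), fibroblasts (13760 to 14560 against 13030 to 15760), smooth muscle (7723 to 9018 against 7237 to 8565) and macrophages (3727 to 4159 against 3681 to 5232) overlapped between groups, as did those for lymphocytes, brown adipocytes, skeletal muscle and blood. Those for white adipocytes did not overlap, at 9324 to 9534 in controls and 9742 to 11940 after trilinolenin, with a higher mean for all 7 markers. Of these, Adipoq, Lep, Retn and Cidec, which define the cell type, were under the minimum, and most of the sum was Fabp4 (0.17 ± 0.08, not called), a fatty acid binding protein that capillary endothelium also makes. The part of adipocytes in the results was not tested. All 6 liver and all 6 lung markers lay under the minimum in both groups, although the liver sum was higher after trilinolenin (29.25 to 39.28 against 26.39 to 26.73). RNA quality was read from control probe sets at the 3′ and 5′ ends of 2 transcripts. The 3′ minus 5′ difference for Actb was 0.701 to 0.866 in controls and 0.474 to 0.72 after trilinolenin (difference -0.2, exact permutation p = 0.0857, 2-sided, where 0.0286 is the smallest possible), and that for Gapdh differed by 0.04 (exact permutation p = 0.286). The part of RNA quality in the results was not tested.

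The same gavage was given to KO hearts with controls of their own, which asks whether these changes occur without PPARα. In KO hearts 984 genes were called (11.9% of those tested), 383 higher and 601 lower, with 5 hearts in each group rather than 4 and 3. Of the 281 genes called in WT hearts 163 were also called in KO hearts, 72 rising and 91 falling in both and none opposite, which is 58% of the WT calls and 16.6% of the KO calls. The sign was the same for 272 of the 281 and for 70.1% of all tested genes. The median size over the WT calls was 0.53 in WT and 0.36 in KO, but these genes were selected on their WT size, which by itself favours a larger value there.

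**Figure D3:**
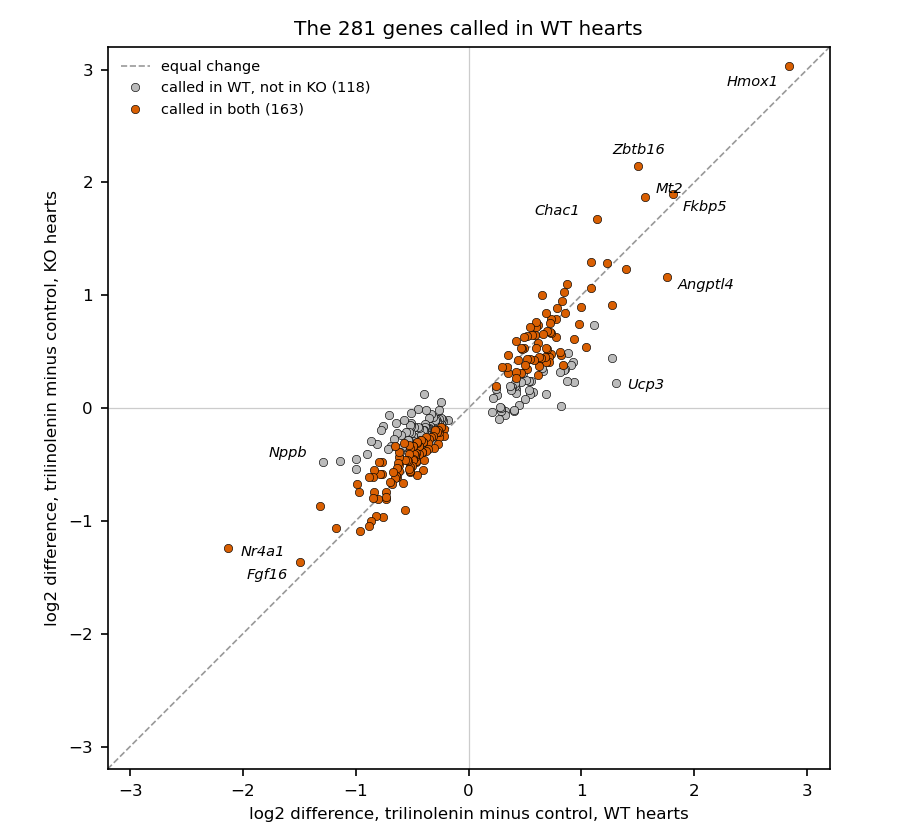
Each point is 1 of the 281 genes called in WT hearts, with its log2 difference between trilinolenin and control in WT hearts on the x axis and in KO hearts on the y axis. Coloured points (163) were also called in KO hearts and all lie in the same quadrant as in WT, while grey points (118) were not; Ucp3 lies near the horizontal line at 0.

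All 6 glucocorticoid responsive genes and 3 of the 4 NRF2 targets called in WT hearts rose in KO hearts too, Osgin1 being the exception (0.13 ± 0.11). Hmox1 read 5.42, 6.00, 5.12, 5.44 and 4.92 in KO controls and 9.20, 9.34, 8.27, 7.50 and 7.77 after trilinolenin (3.04 ± 0.56, adjusted p = 0.000299), again with no overlap. Fkbp5 rose by 1.90 ± 0.35, Zbtb16 by 2.14 ± 0.32, Mt2 by 1.87 ± 0.30, Mt1 by 0.79 ± 0.16 and Chac1 by 1.68 ± 0.23. In KO hearts 20 of 35 glucocorticoid responsive genes rose and 1 fell, and 18 of 32 FoxO targets rose and none fell, where 4.65% of all genes rose and 7.3% fell. All 8 FoxO genes called in WT hearts were called again, with Fbxo32 at 0.42 ± 0.07, Bnip3 at 0.65 ± 0.13 and Cdkn1b at 0.40 ± 0.12. The largest KO rises beyond these were Setdb2, a methyltransferase gene (2.18 ± 0.57), Cdkn1a, the cell cycle inhibitor p21 (1.85 ± 0.47), the cytochrome P450 gene Cyp2e1 (1.80 ± 0.42) and the kinase gene Map3k6 (1.75 ± 0.32). In WT hearts those 4 differed by 1.67, 0.34, 1.07 and 0.80 and were not called.

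The largest KO falls were in Aplnr, the apelin receptor of endothelium, from 7.79, 7.49, 7.73, 7.01 and 6.76 to 4.72, 4.80, 4.77, 6.25 and 2.43 (-2.76 ± 0.51, adjusted p = 0.000303), and Tfrc, the transferrin receptor, from 7.14, 7.64, 7.60, 8.44 and 7.01 to 5.76, 5.61, 5.93, 6.44 and 5.26 (-1.76 ± 0.33). No KO heart overlapped across groups for either gene. Aplnr differed by -1.12 and Tfrc by -0.94 in WT hearts, neither called. Sox4 (-1.47 ± 0.29), Adam19 (-1.34 ± 0.32), Myct1 (-1.31 ± 0.34), Akr1c14 (-1.29 ± 0.26) and Tmprss13 (-1.29 ± 0.26) followed, and Fgf16 fell by 1.36 ± 0.29 much as in WT. The falls of Perm1 (-0.59 ± 0.09), Nabp1 (-0.74 ± 0.13), Kpna2 (-0.74 ± 0.13), Srf (-0.75 ± 0.13), Gja1 (-0.56 ± 0.13) and Ppp1r3c (-0.67 ± 0.12) were called in KO hearts as well.

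Genes of fatty acid use differed in where they were called. Of the 6 PPAR targets called in WT hearts 2 were called in KO hearts, Angptl4 (1.17 ± 0.38, adjusted p = 0.0384) and the carrier gene Slc25a34 (0.31 ± 0.11). Of the 7 genes of lipid droplets and uptake called in WT hearts 4 were called in KO hearts too: Angptl4, Hsd17b11, Lipe and Plin4. In KO hearts 8 of the 32 genes of that list rose and 1 fell. Of the 35 PPAR targets 5 rose and 3 fell there, where 4.65% of all genes rose and 7.3% fell. Ucp3 in KO hearts read 4.32, 3.78, 4.09, 3.85 and 3.42 in controls and 4.35, 4.03, 4.08, 3.77 and 4.35 after trilinolenin, overlapping and under the brightness minimum on average, so its KO difference of 0.22 is not exact. Eci2 read 9.72, 9.70, 9.74, 9.83 and 9.62 against 9.52, 9.64, 9.61, 9.63 and 9.72 (-0.10 ± 0.05, adjusted p = 0.169). Abhd1 (0.23 ± 0.16), Plin2 (0.24 ± 0.12), Slc27a1 (0.24 ± 0.12), Gpam (-0.03 ± 0.07) and Nppb (-0.47 ± 0.31) were not called there either, whereas Pdk4 was (1.05 ± 0.20, adjusted p = 0.000506). In the oxidation list 3 of 24 genes fell in KO hearts (Acaa2, Acadl and Acadvl) and none rose.

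A call in one genotype only does not show that the change differed, so the difference of the changes was tested. No gene passed limma's test of it (0 of 8237, 0%), with 383 genes at an unadjusted p under 0.05, of which 43 were among the WT calls. The lowest adjusted p was that of Eci2, whose change was 0.37 ± 0.07 higher in WT than in KO (adjusted p = 0.0652), followed by the coenzyme A carrier gene Slc25a42 (0.73 ± 0.17, adjusted p = 0.279), which fell in KO hearts by 0.63. For Ucp3 the difference of changes was 1.09, with an interval of 0.24 to 1.94 at 95%, and for Hmox1 it was -0.19 (-1.97 to 1.58). The precision was limited: the median half-width of these intervals over all genes was 0.33, and for 5983 genes (72.6%) the interval lay within 1.5-fold in either direction.

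Direct contrasts between oils in WT hearts hold volume, time and fat load constant and do not use the controls. The 3 oils compared have chains of 18 carbons with 1 (triolein) or 2 double bonds (trilinolein), or 22 carbons with 6 (tridocosahexaenoin), against 18 with 3 in trilinolenin. Against triolein 43 genes were called (0.522%), 26 higher and 17 lower after trilinolenin, 31 of them also called against the control. Against trilinolein none was (0%), and against tridocosahexaenoin 46 were (0.558%), 22 higher and 24 lower, 19 of them also called against the control. The same trilinolenin hearts enter these contrasts and the comparison with the control, so the shared calls are not independent. All of these counts come from limma, with 1010, 263 and 870 genes at an unadjusted p under 0.05.

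Trilinolenin hearts had more Hmox1 mRNA than triolein hearts, which read 5.43, 4.22, 6.46 and 5.44, all below the lowest trilinolenin heart at 7.31 (2.90 ± 0.63, adjusted p = 0.0257). Pnpla7, at 6.45, 6.01, 5.77 and 5.95 after triolein, was higher by 1.35 ± 0.27 (adjusted p = 0.0115). Perm1 gave the lowest p of this contrast: triolein hearts read 9.25, 9.34, 9.25 and 9.36, all above the highest trilinolenin heart at 8.74 (-0.65 ± 0.10, adjusted p = 0.000155). Alas1, the first enzyme of heme synthesis, read 9.45, 10.14, 8.81 and 9.64 after triolein and 8.38, 8.09, 8.22 and 8.11 after trilinolenin, a difference of -1.31 ± 0.25 (adjusted p = 0.00866) with no overlap. So Hmox1 was higher and Alas1 lower in the same hearts than after triolein, but against the control Alas1 was not called. Rasd1 (1.25 ± 0.25), Chac1 (1.16 ± 0.26), Arrdc3 (1.01 ± 0.19), Slc46a3 (0.94 ± 0.23), the AP-1 gene Fosl2 (1.04 ± 0.26) and the amino acid transporter gene Slc43a2 (0.77 ± 0.17) were also higher. The adrenergic receptor gene Adra1b (-0.80 ± 0.19), Rasl11b (-0.75 ± 0.17), Rgs19, a regulator of G protein signalling (-0.69 ± 0.14), Mrm1 (-0.65 ± 0.15), Kpna2 (-0.65 ± 0.15) and Dnajb5 (-0.62 ± 0.14) were lower. Slc43a2 after triolein, Adra1b after trilinolenin and Rgs19 after both had means under the brightness minimum. This count is unsteady: it was 1 without triolein replicate 2, 13 without triolein replicate 4 or trilinolenin replicate 2 or 4, 14 without trilinolenin replicate 3 and up to 58 otherwise.

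PPAR targets did not separate trilinolenin from triolein. Angptl4 read 8.02, 7.85, 9.46 and 7.95 after triolein, a difference of -0.56 with an interval of -1.42 to 0.31 at 95%, and Ucp3 read 7.22, 7.19, 7.83 and 7.21, a difference of -0.13 (-0.73 to 0.48). These intervals leave room for differences of either sign. The list of 35 PPAR targets had no call and a median of -0.02 in this contrast.

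Trilinolein, with a single double bond less in each chain, could not be told from trilinolenin by any single gene. Its lowest adjusted p was 0.694. The intervals at 95% were narrow enough to lie within 1.5-fold in either direction for 7661 genes (93%), while for the rest the interval reaches past that size. Trilinolein hearts read 7.76, 7.57, 7.11, 7.25 and 7.28 for Hmox1, within or below the trilinolenin range, a difference of 0.90 with an interval from -0.30 to 2.09. For Etfbkmt they read 9.25, 9.33, 9.26, 9.27 and 9.33, a difference of 0.05 (-0.17 to 0.27). Perm1 differed by -0.13 (-0.31 to 0.06), with trilinolein hearts at 8.75, 8.71, 8.82, 8.92 and 8.69.

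Against tridocosahexaenoin 3 of 32 genes of lipid droplets and uptake were higher and none lower, where 0.267% of all genes were higher. They were Hsd17b11, Gpam and Plin2. Hsd17b11 read 9.10, 8.70, 9.07, 8.32 and 9.05 after tridocosahexaenoin, all below the lowest trilinolenin heart at 9.34 (0.62 ± 0.10, adjusted p = 0.000681). Gpam (0.43, adjusted p = 0.000973), Plin2 (0.52 ± 0.13, adjusted p = 0.0354) and Ehhadh, a peroxisomal enzyme of fatty acid oxidation (0.73 ± 0.17, adjusted p = 0.0255), were higher too. The other large differences in that direction were Tspyl4 (0.65 ± 0.15), the transporter gene Slc16a9 (0.61 ± 0.15), Tmem41a (0.61 ± 0.13), the cilia gene Ttc30b (0.51 ± 0.12) and Enox2 (0.48 ± 0.11), with Slc16a9 and Enox2 under the minimum on average after tridocosahexaenoin. Angptl4, at 7.42, 5.80, 6.11, 5.11 and 7.07, was lower than after trilinolenin in most hearts but not called (1.46 for trilinolenin minus tridocosahexaenoin, adjusted p = 0.0829), and Ucp3 missed the threshold (1.12, adjusted p = 0.0501). Among genes lower after trilinolenin, Tnfrsf12a read 7.60, 7.52, 6.73, 7.13 and 7.83 after tridocosahexaenoin, all above the trilinolenin hearts (-1.29 ± 0.30, adjusted p = 0.0255). Pfkfb2, the heart's main regulator of phosphofructokinase, read 7.66, 7.74, 7.58, 7.96 and 7.46 against 7.11, 7.05, 6.41 and 6.61 (-0.89 ± 0.15, adjusted p = 0.000681). Ppara read 8.11, 8.31, 8.35, 8.59 and 8.49 against 7.96, 7.93, 7.38 and 7.68 (-0.63, adjusted p = 0.00253). No hearts overlapped for these 3. Frmd5 (-1.20 ± 0.20), Ppfia1 (-1.06 ± 0.20), Dnajb5 (-0.78 ± 0.13), Ppp1r3c (-0.70 ± 0.13), Pacs2 (-0.68 ± 0.14) and Perm1 (-0.55, adjusted p = 0.000681) were lower as well. Rab30 was the only other among the 8 largest, its signal having fallen by 1.00 ± 0.24 to a mean under the minimum. Hmox1 was not separated by this contrast (0.17, with an interval of -1.03 to 1.37). Tridocosahexaenoin replicate 4 read 5.06 for Hmox1, with the other 4 hearts at 8.67 to 9.11, and without it 16 genes were called. The count was 13 without trilinolenin replicate 4, 19 without trilinolenin replicate 3, 23 and 27 without tridocosahexaenoin replicates 5 and 2, and 0 when only these groups were fitted.

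**Figure D4:**
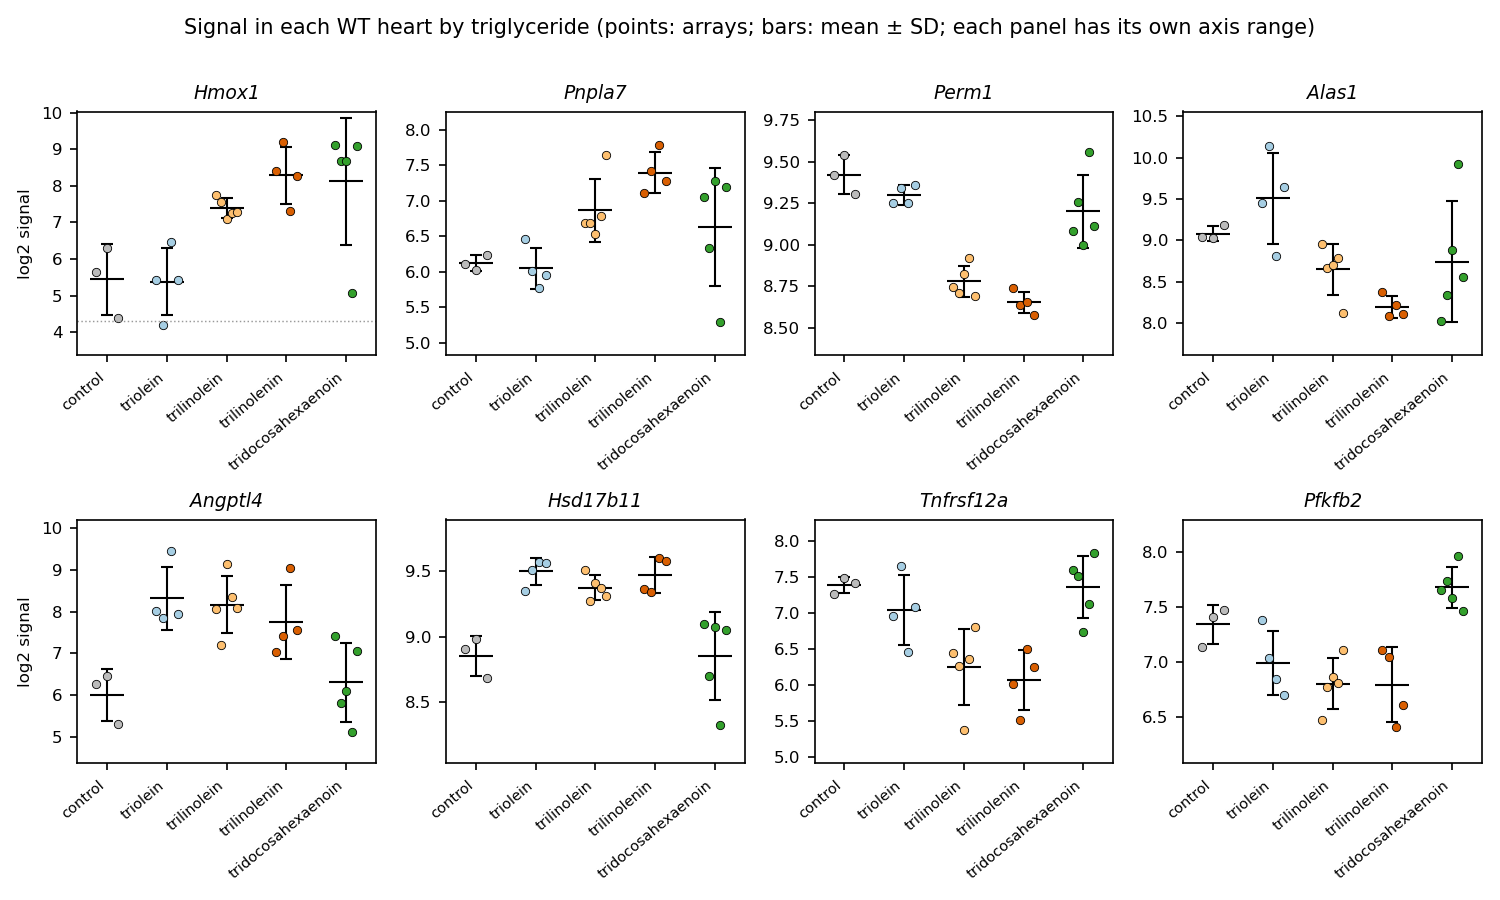
Each point is the log2 signal of 1 WT heart, with the mean and SD of its group, for 8 genes after the control gavage and each triglyceride; a dotted line marks the brightness minimum of 4.322 and axis ranges differ. Hmox1 and Pnpla7 are higher and Alas1 and Perm1 lower after trilinolenin than after triolein, and Hsd17b11 is higher and Tnfrsf12a and Pfkfb2 lower than after tridocosahexaenoin.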

How the data were processed

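The values analysed are the deposited log2 signals of 45101 probe sets on 55 arrays, made with GCRMA 2.2.0 per the submitters' processing notes. GCRMA corrects background by probe sequence, and it normalizes arrays to a common distribution, which can hide a shift shared by most genes. The array annotation gave 34958 probe sets 1 gene symbol, 932 several and 9211 none, and only the first were named. A total of 13 control probe sets were left out.

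A means model over the groups of all 55 arrays was fitted with limma 3.58.1 in R 4.3.3 (43 residual and 3.255 prior degrees of freedom), and contrasts were adjusted by Benjamini-Hochberg over 8237 genes. Its use was tested on simulated data. Genes are named if among the 25 largest or 15 lowest-p called changes in a direction, if a called member of a list, or if one of a few index genes. In the KO, interaction and oil contrasts the 8 largest each way are named. The members and lists were chosen with earlier results of these data known. Promoters come from RefSeq windows, with positions counted from the start base as 0, and Hmox1 is named without one. Alternatives were the filter on dim genes, probe set averaging, 2 scalings, array weights, a trended prior, a replicate block, fits on fewer groups and leaving out each array.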

Additional observations from a re-analysis of the deposited data

Results flagged for a closer look

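A gap test for 1 heart apart from the other 3 of its group was made on 112 named genes in the 4 WT trilinolenin hearts, and it marked 2 of them, where chance marks about 1 in 20. Clock stood at 6.218 in trilinolenin replicate 1, with the other 3 hearts at 6.411 to 6.445 (gap over range 0.849). Ciart stood at 4.777 in trilinolenin replicate 4, with the others at 3.941 to 4.039 (gap over range 0.883). Both hearts remained below every control for these clock genes.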

How the results depend on the processing

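Of the called gene values that were recomputed, those of the named WT genes and of the largest changes in the other contrasts, none changed direction. Among uncalled index genes Cd36, at 0.02, went to -0.003 with quantile normalization and to -0.01 and -0.02 without control replicate 1 and trilinolenin replicate 3. Of 107 named genes called in WT hearts, 38 kept the call without control replicate 2, and 66 did when only the control and trilinolenin groups were fitted. Against the control in WT hearts the count of 281 became 180 with no filter on dim genes, 477 with array weights and 137 with only the groups compared. Leaving out single arrays gave 46 to 205. In KO hearts the count of 984 became 633 with only the groups compared and 649 to 1071 without single arrays. The difference of effects gave 1 gene with the filter at 100, centring, array weights or the trended prior, 2 with the mean of all probe sets, and 0 to 1 without single arrays. Against triolein the count of 43 became 10 with no filter, 70 with the filter at 100, 68 with the mean of probe sets or quantile normalization, 77 with centring, 28 with array weights or only WT groups, 17 with only the groups compared and 1 to 58 without single arrays. Against tridocosahexaenoin the count of 46 became 0 with only the groups compared and 13 to 59 without single arrays. Against trilinolein it was 0 throughout. The causes were not tested, except that fits on fewer groups estimate the spread from fewer arrays.

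Same-numbered control and trilinolenin hearts deviated from their group means with correlations of -0.188, -0.0786 and -0.0754. So few hearts cannot decide whether replicate numbers pair them. With the replicate number as a block 306 genes were called in WT hearts, 264 of them among the 281, and 1024 in KO hearts, 67 against triolein, 53 against tridocosahexaenoin and 0 in the others. Few arrays, 3 of them controls, and signals near the brightness minimum limit the smaller differences.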
